A study of Mus musculus with 8 samples.

Results

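Mesenchymal stromal cells of mouse fat were profiled for the genes that carry Wnt signals between cells: the Wnt ligands, their frizzled receptors and Lrp co-receptors, the secreted inhibitors and the R-spondins, together with Axin2. The genes were chosen by a rule on symbols that uses no measured value, but with earlier results of these data known. This gave 45 of the 19505 genes on the arrays, each read by 1 probe set. They were 19 Wnt ligands, 10 frizzleds, 2 co-receptors (Lrp5 and Lrp6), 6 inhibitors that bind Wnt proteins (Sfrp1, Sfrp2, Sfrp4, Sfrp5, Frzb and Wif1), 4 Dickkopf inhibitors (Dkk1 to Dkk4), 3 R-spondins and Axin2. The cells came from the inguinal fat pad of male FVB mice aged 12 months, were grown in high-glucose medium with serum, and were all infected with the lentiviral vector pLKO.1. The vector was empty in 2 arrays (empty vector), carried a scrambled hairpin in 2 (scramble), and carried a hairpin against the transcription factor Irf7 in 4 (shIRF7). Only 1 Irf7 hairpin construct is named, and no array of uninfected cells was analysed here. The labels do not say whether replicates were separate cultures, animals or infections, so p-values reflect only how far these arrays vary, and that variation may be technical. The title of the series places Irf7 in the ageing of these cells, and the comparison below asks how the Wnt genes differ when Irf7 is lowered.

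Wnt proteins are secreted lipid-modified ligands that bind frizzled receptors. In the canonical branch a frizzled pairs with Lrp5 or Lrp6, the complex that destroys beta-catenin is inhibited, and beta-catenin enters the nucleus to act with Tcf and Lef factors on target genes, of which Axin2 is a widely used readout. Secreted frizzled-related proteins, Frzb and Wif1 bind Wnt proteins outside the cell, and Dickkopf proteins such as Dkk1 act on Lrp5 and Lrp6. R-spondins raise the number of frizzled receptors at the surface by blocking the ligases that remove them. In stromal cells of fat and bone marrow canonical Wnt signals are known for holding back adipocyte formation and favouring bone formation.

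Values are log2 signals, which can be compared between arrays for a gene but not between genes. The 95th percentile of 5222 negative control probe sets, between 7.93 and 8.72 on the 8 arrays, served as the level of background, and 31.6% to 36.7% of named probe sets exceeded it. The medians of the negative controls lay between 4.18 and 4.56, at 4.18 to 4.26 in replicate 1 of each group and 4.55 to 4.56 in replicate 2 of each group. Irf7 measured 9.55 to 9.76 in the 4 control arrays and 4.42 to 6.79 in shIRF7, with no overlap (log2 difference -3.79, SE 0.48; limma adjusted p = 0.0692; two-sided exact permutation p = 0.0286, the smallest that 4 against 4 arrays allow). Of 11 stromal markers measured, 9 exceeded background on every array, among them Pdgfrb, Eng, Col1a1 and Vim, while Thy1 did so on 2 arrays and Nt5e on 0. The mean over these markers was 13.12 to 13.21 in the controls and 12.62 to 13.03 in shIRF7, without overlap. Its members differed in direction. Col1a1 measured 16.29 to 16.99 in the controls and 15.56 to 15.81 in shIRF7, and 2.8% of all genes were likewise lower without overlap. Thy1 measured 7.59 to 9.54 in the controls and 4.87 to 7.60 in shIRF7. In contrast Vcam1 measured 12.70 to 13.18 in the controls and 13.08 to 14.27 in shIRF7, and Alcam 8.98 to 11.13 and 10.88 to 11.44. The smallest limma adjusted p of a marker in the list was 0.187. Markers of leucocytes (9 measured), endothelium (7), adipocytes (5), epithelium and mesothelium (9) and Schwann cells (3) exceeded background on 0 arrays. Of 5 skeletal muscle markers 1, Acta1, exceeded it on 3 arrays, at 8.96 in scramble replicate 1 and 12.17 and 9.51 in shIRF7 replicates 1 and 4, and the mean of that list was 4.46 to 5.22 in the controls and 4.34 to 5.79 in shIRF7. The mean over 6 markers of pericytes and smooth muscle varied within shIRF7, against 7.51 to 8.15 in the controls. It was 9.69 in replicate 1, 6.89 in replicate 2, 6.69 in replicate 3 and 8.06 in replicate 4. Of these 6 markers Acta2 and Cnn1 exceeded background on all 8 arrays, Mcam on 1 and 3 on 0. Cnn1 ranged from 9.73 to 15.71, Acta2 from 16.28 to 18.62, Mcam from 4.16 to 10.68 and Myh11 from 3.54 to 7.06. Rgs5 (2.80 to 3.23) and Cspg4 (2.97 to 3.48) stayed low on all arrays. The part of these marker differences in the results on Wnt genes was not tested.

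The Wnt genes did not pass the test as single genes in any comparison. With limma and Benjamini-Hochberg adjustment over all genes, 0 of 45 were called in shIRF7 against both controls, where 0.0308% of all genes were called, and the smallest adjusted p was 0.379. Without adjustment 1 of 45 (2.22%) had a p under 0.05, against 8.12% of all genes. In shIRF7 against scramble 0 were called (0.00513% of all genes), with 2 at an unadjusted p under 0.05 (6.14% of all genes). Against empty vector 0 were called (0% of all genes), with 0 at an unadjusted p under 0.05 (5.84% of all genes). Scramble against empty vector called 0 Wnt genes (0% of all genes), with 1 at an unadjusted p under 0.05 (1.93% of all genes). The median log2 difference of the 45 genes between shIRF7 and both controls was 0.017, with 24 genes higher and 21 lower, and the median over all genes was 0.0017. In 1 Wnt gene, Wnt7b, all 4 shIRF7 values lay above all controls, and in 0 genes they lay below, against 2.58% and 2.8% of all genes. Against scramble alone the 4 shIRF7 values lay above both arrays in 3 Wnt genes (Dkk2, Wif1 and Wnt7b) and below both in 3 (Axin2, Wnt4 and Wnt5b), against 7.99% and 7.61% of all genes. Against empty vector they lay above in 4 (Sfrp1, Wnt2b, Wnt7b and Wnt9a) and below in 1 (Dkk4), against 6.32% and 6.96%. Wnt7b lay below the median of the negative controls on every array (2.78 to 3.34). Shown in the plot of all members by array, 9 genes exceeded background on at least 4 arrays, 3 on 1 to 3 arrays and 33 on none. Of the 45 genes 19 lay below the median of the negative controls on all 8 arrays, and for those only an upper limit on the level was measured.

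**Figure D1:**
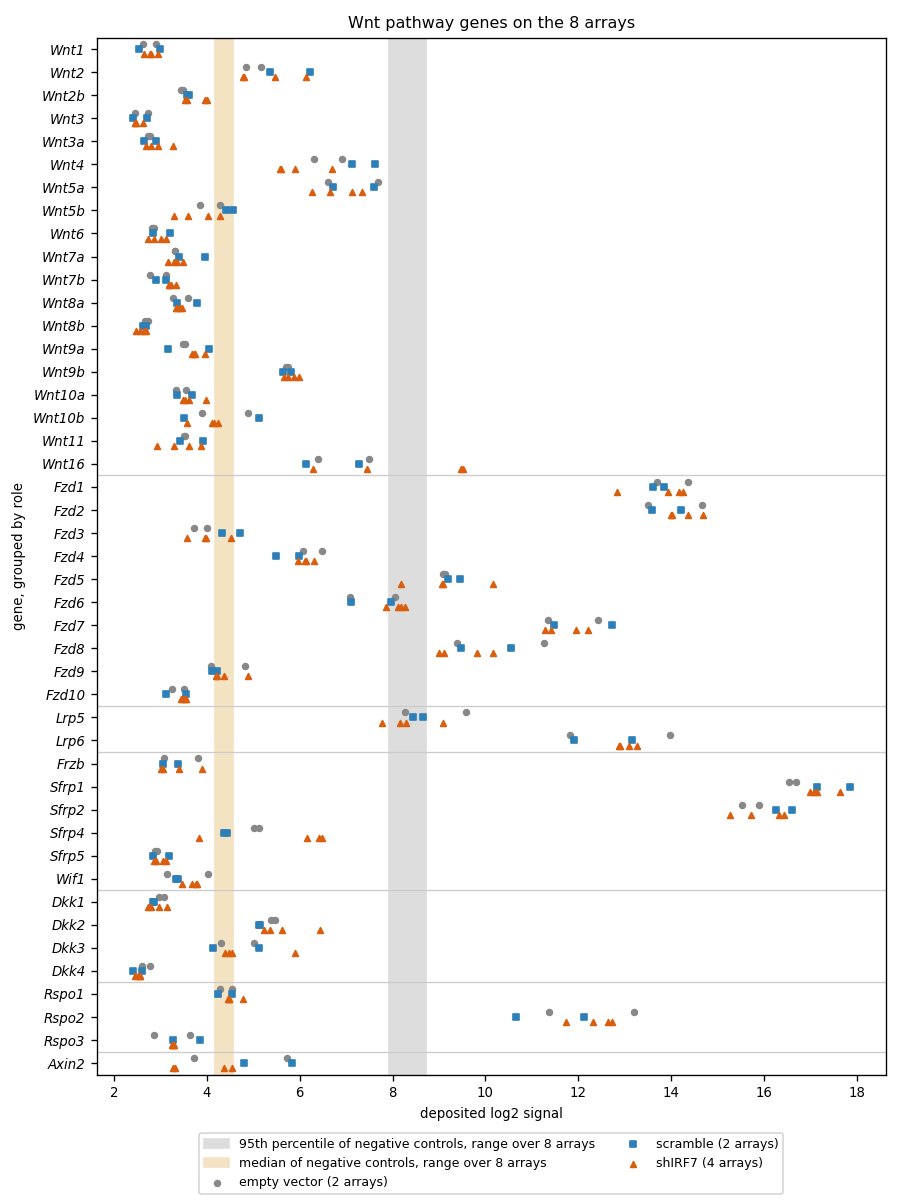
Deposited log2 signal (x axis) of each of the 45 Wnt pathway genes (y axis, grouped by role) on each array, with empty vector as circles, scramble as squares and shIRF7 as triangles; shaded bands are the ranges of the median and of the 95th percentile of negative control probe sets over the 8 arrays. Fzd1, Fzd2, Fzd7, Fzd8, Lrp6, Sfrp1, Sfrp2 and Rspo2 lie to the right of the background band on all 8 arrays, and no Wnt ligand does so on 4 or more arrays.

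The genes above background were mainly receptors and secreted inhibitors. Among the 19 ligands 0 exceeded background on 4 or more arrays, and Wnt16 did so on 2. Among the 10 frizzleds 5 did (Fzd1, Fzd2, Fzd5, Fzd7 and Fzd8), with Lrp6 of the co-receptors, Sfrp1 and Sfrp2 of the inhibitors, and Rspo2 of the R-spondins. None of the 4 Dickkopf genes exceeded it on any array. In bulk RNA fewer cells that express a gene and less RNA per cell cannot be told apart.

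**Figure D2:**
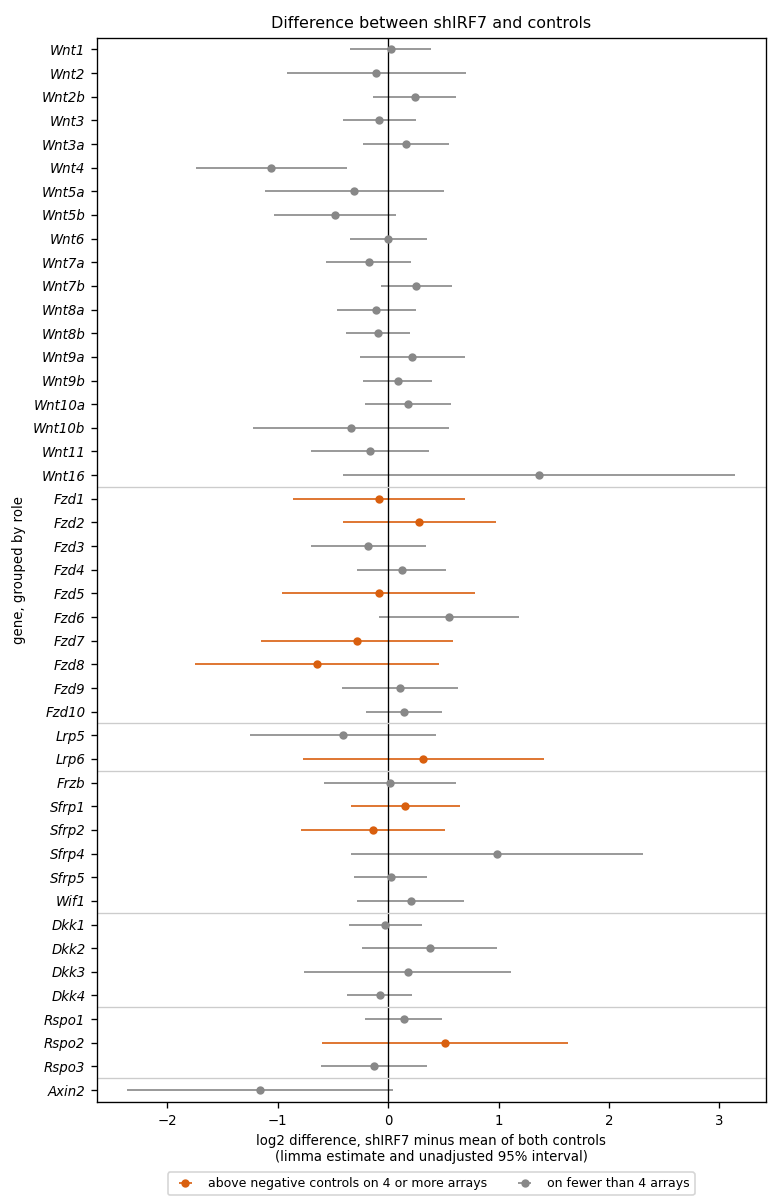
Log2 difference between shIRF7 and the mean of both controls (x axis; limma estimate with its unadjusted 95% interval) for each Wnt pathway gene (y axis, grouped by role), with genes above background on 4 or more arrays in orange. The interval excludes 0 for Wnt4 (-1.74 to -0.37), which did not pass after adjustment; the intervals of Wnt16 (-0.41 to 3.14) and Axin2 (-2.36 to 0.042) are wide.

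Wnt4, a ligand that signals through canonical and other branches depending on the tissue, had the smallest p of the 45 genes. It measured 6.92 and 6.32 in empty vector, 7.63 and 7.12 in scramble, and 6.69, 5.58, 5.60 and 5.89 in shIRF7 replicates 1 to 4. All 4 shIRF7 arrays lay below both scramble arrays, and shIRF7 replicate 1 lay between the empty vector arrays. The controls averaged 7.00 ± 0.54 and the shIRF7 arrays 5.94 ± 0.52 (SD, n = 4 each). The log2 difference was -1.06 (SE 0.29, 2.08-fold, unadjusted p = 0.00754, adjusted p = 0.379). The difference was -1.43 against scramble (SE 0.36, adjusted p = 0.502) and -0.68 against empty vector (SE 0.36, adjusted p = 0.893), and scramble stood 0.76 above empty vector (SE 0.42, adjusted p = 0.9999). Without shIRF7 replicate 1 it reached -1.31 (adjusted p = 0.0964). On all arrays Wnt4 lay between the median and the 95th percentile of the negative controls, so a fold can be understated.

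Wnt16, a ligand known in bone for limiting resorption, showed the widest range of any ligand. Its values, described in full after they were seen, were 7.49 and 6.39 in empty vector, 7.27 and 6.13 in scramble, and 6.30, 9.52, 9.47 and 7.46 in shIRF7 replicates 1 to 4. Replicates 2 and 3 of shIRF7 stood above every control, whereas shIRF7 replicates 1 and 4 fell within the control range. The log2 difference was 1.37 (SE 0.76, adjusted p = 0.732). Its spread in shIRF7 (8.19 ± 1.58, SD, n = 4) exceeded the difference. Replicates 2 and 3 of shIRF7, where Wnt16 was high, had the lowest means of the pericyte and smooth muscle markers (6.89 and 6.69), and replicate 1, where it was low, had the highest (9.69). The controls did not show this order. In scramble, replicate 1 had the higher marker mean (8.15 against 7.72) and also the higher Wnt16 value. In empty vector the marker means were 7.51 and 7.56 in replicates 1 and 2. A relation between Wnt16 and these markers was not tested.

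None of the other ligands passed the test. Wnt5a, the ligand best known for signals that do not use beta-catenin, measured 6.62 to 7.69 in the controls and 6.27 to 7.35 in shIRF7 (log2 difference -0.31, SE 0.35, adjusted p = 0.898). In both controls its replicate 1 was higher (7.69 and 7.61) than its replicate 2 (6.62 and 6.72). Wnt2 (4.78 to 6.23) and Wnt9b (5.65 to 5.99) also lay above the median of the negative controls on all arrays, with differences of -0.10 and 0.09. Wnt5b measured 4.29 and 3.86 in empty vector, 4.57 and 4.42 in scramble, and 3.60, 4.02, 4.28 and 3.31 in shIRF7. All shIRF7 values of Wnt5b were under both scramble values and overlapped empty vector, a difference of -0.69 against scramble (limma unadjusted p = 0.0466, adjusted p = 0.809). Only in replicate 1 of empty vector and of scramble did Wnt5b exceed the median of the negative controls. That difference therefore rests partly on values at background. Wnt10b exceeded the median of the negative controls on 2 arrays only, replicate 2 of empty vector (4.90) and of scramble (5.12). The remaining ligands were Wnt1, Wnt2b, Wnt3, Wnt3a, Wnt6, Wnt7a, Wnt7b, Wnt8a, Wnt8b, Wnt9a, Wnt10a and Wnt11, 12 genes that lay below that median on all arrays.

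Promoter windows from RefSeq (GRCm38.p6), of 300 bases with 250 before the start of the transcript, were searched on both strands for CTTTGAT, a core of Tcf and Lef binding sites, and for a core of the interferon-stimulated response element, which interferon regulatory factors bind, searched as GAAA blocks spaced by any 2 bases. Of the 45 genes 29 had a window, 32 windows in all. CTTTGAT was found in 2 of these windows, those of Wnt5b and Wnt11, against 3.73% of all 32851 windows, and the response element core in 0, against 3.44%, so no matches of the 2 motifs overlapped. The stretches around both matches are shown because they are the only windows of the family with either motif, with the match in capitals (read on the strand of the gene, and in reverse for Wnt11). They lie at chr6:119449421-119449487 (minus strand) and chr7:98835031-98835097 (plus strand), with the match ending 64 and 44 bases before the transcript start.
Wnt5b: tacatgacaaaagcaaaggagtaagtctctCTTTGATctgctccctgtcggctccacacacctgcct
Wnt11: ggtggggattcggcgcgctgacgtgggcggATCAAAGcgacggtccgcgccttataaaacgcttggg
A match is a description of the letters and not a measured binding site, and Wnt11 itself measured 2.94 to 3.92, below the median of the negative controls.

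None of the frizzled receptors passed the test, and in those above background the shIRF7 and control values overlapped. Fzd1 measured 14.37 and 13.69 in empty vector, 13.83 and 13.60 in scramble, and 12.84, 14.16, 14.25 and 13.92 in shIRF7. The lowest Fzd1 value was that of shIRF7 replicate 1, and the other shIRF7 arrays lay within the control range (log2 difference -0.08, SE 0.34, adjusted p = 0.979). Fzd2 measured 14.65 and 13.50 in empty vector, 14.20 and 13.58 in scramble, and 14.68, 14.02, 14.00 and 14.36 in shIRF7 (log2 difference 0.28, SE 0.30, adjusted p = 0.883). These are receptors of the same frizzled subgroup as Fzd7, and all 3 groups overlapped for both.

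Fzd7, a receptor widely expressed in stem and stromal cells, measured 12.43 and 11.34 in empty vector, 12.72 and 11.48 in scramble, and 12.20, 11.42, 11.27 and 11.95 in shIRF7 (log2 difference -0.28, SE 0.37, adjusted p = 0.915). Fzd8 measured 11.26 and 9.38 in empty vector, 10.54 and 9.46 in scramble, and 10.16, 9.00, 9.10 and 9.81 in shIRF7 (log2 difference -0.64, SE 0.48, 95% interval -1.75 to 0.46, adjusted p = 0.813). Both were high in replicate 1 and low in replicate 2 of every group, and the hairpin and control values overlapped. Fzd5 measured 9.13 and 9.08 in empty vector, 9.45 and 9.18 in scramble, and 10.16, 8.19, 9.09 and 9.06 in shIRF7. Its controls spanned 0.36 while shIRF7 held both the highest and the lowest value (log2 difference -0.09, SE 0.38, adjusted p = 0.980).

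Of the frizzleds at or below background, Fzd6, which acts mainly in planar cell polarity, measured 8.06 and 7.07 in empty vector, 7.98 and 7.11 in scramble, and 8.12, 8.26, 7.86 and 8.19 in shIRF7. The shIRF7 arrays were near control replicate 1 and lay above control replicate 2 (log2 difference 0.55, SE 0.27, adjusted p = 0.681). Fzd4, the Norrin receptor, ranged from 5.50 to 6.48, Fzd3 from 3.59 to 4.72, Fzd9 from 4.10 to 4.89 and Fzd10 from 3.13 to 3.56. Over all 10 frizzleds 5 were higher and 5 lower in shIRF7 than in both controls, with a median difference of 0.011.

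The co-receptors also differed between control replicates. Lrp6 measured 13.96 and 11.81 in empty vector, 13.15 and 11.90 in scramble, and 12.87, 13.08, 13.26 and 12.88 in shIRF7. The 4 shIRF7 arrays spanned 0.39 and lay within the control range, above replicate 2 of both control groups (log2 difference 0.32, SE 0.47, adjusted p = 0.922). Lrp5 measured 9.58 and 8.27 in empty vector, 8.65 and 8.43 in scramble, and 9.09, 8.16, 8.29 and 7.76 in shIRF7, and exceeded background on 3 arrays, replicate 1 of each group (log2 difference -0.41, SE 0.36, adjusted p = 0.852).

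R-spondin 2, encoded by Rspo2, was the R-spondin above background. It measured 13.20 and 11.37 in empty vector, 12.11 and 10.66 in scramble, and 11.74, 12.71, 12.64 and 12.31 in shIRF7. The shIRF7 values lay between the highest and lowest control (log2 difference 0.52, SE 0.48, 95% interval -0.59 to 1.63, adjusted p = 0.860). The difference was 0.97 against scramble (SE 0.59, adjusted p = 0.894) and 0.07 against empty vector (SE 0.59, adjusted p = 0.996). Rspo1 ranged from 4.24 to 4.78 and Rspo3 from 2.86 to 3.85.

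**Figure D3:**
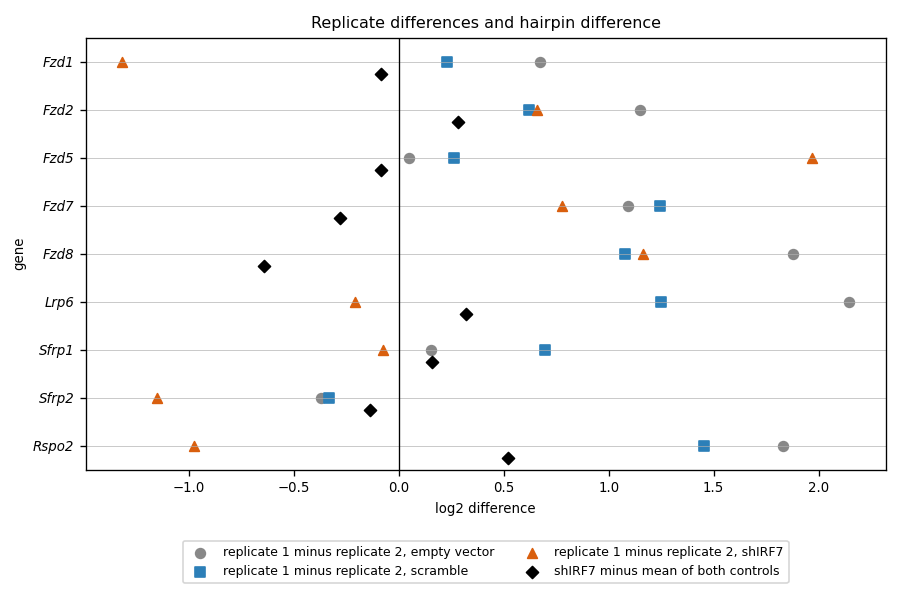
Log2 difference between replicate 1 and replicate 2 within empty vector (circles), scramble (squares) and shIRF7 (triangles), beside the difference between shIRF7 and both controls (diamonds), for the 9 Wnt pathway genes above background on 4 or more arrays. In 8 of the 9 genes both control groups lie right of 0, with Sfrp2 the exception; for Lrp6 the control differences are 2.15 and 1.25 and that of shIRF7 is -0.21.

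The control arrays numbered 1 and 2 differed from each other in most of the genes above background. Replicate 1 stood above replicate 2 in both control groups in 8 of the 9 genes above background, against 36.3% of all 6746 genes above background on 4 or more arrays. Over all 45 Wnt genes it did so in 26, or 57.8%, against 37% of all genes. The median of that difference over the 9 genes was 1.09 in empty vector and 0.70 in scramble, and -0.07 in shIRF7, where 4 of 9 were higher in replicate 1. Lrp6 differed by 2.15 in empty vector and 1.25 in scramble, Fzd8 by 1.88 and 1.08, and Rspo2 by 1.83 and 1.46. In shIRF7 the same differences were -0.21 for Lrp6, 1.16 for Fzd8 and -0.97 for Rspo2. What separates replicates 1 and 2 is not stated in the labels, and this difference was not tested. The medians of the negative controls given above were lower in replicate 1 of all 3 groups, shIRF7 included.

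**Figure D4:**
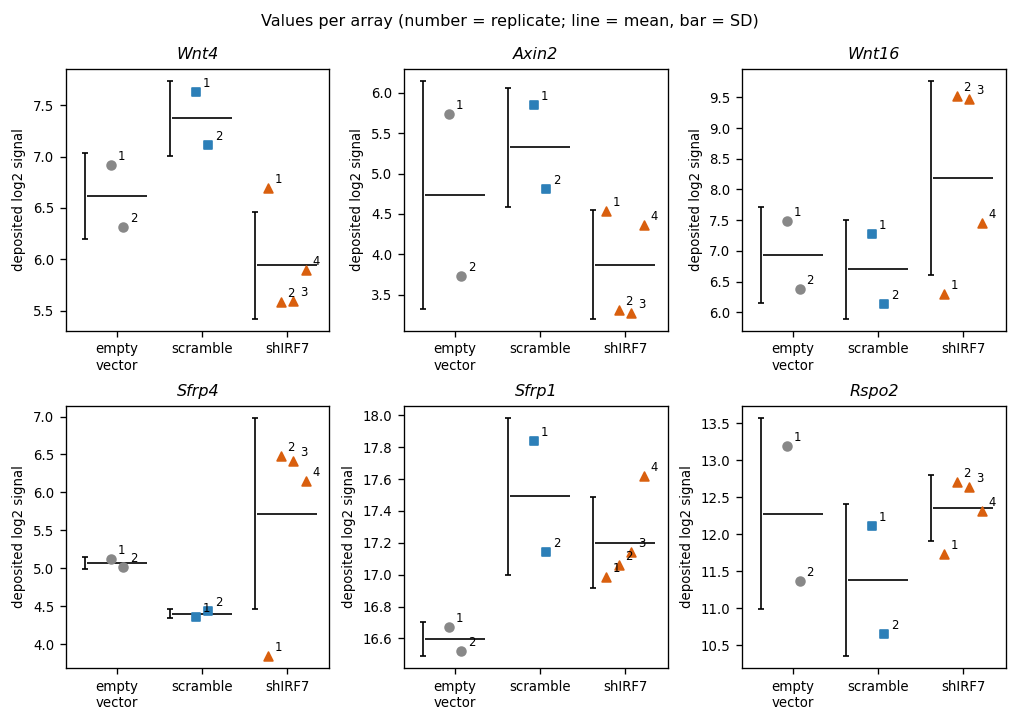
Deposited log2 signal (y axis) on each array of empty vector, scramble and shIRF7 (x axis) for Wnt4, Axin2, Wnt16, Sfrp4, Sfrp1 and Rspo2; numbers are replicates, horizontal lines group means and bars SD (n = 2, 2 and 4). Replicate 1 of shIRF7 is the highest shIRF7 array for Wnt4 and Axin2 and the lowest for the other genes, and for Sfrp4 (3.85) it is the lowest of all 8 arrays.

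Among the inhibitors that bind Wnt proteins, Sfrp1 and Sfrp2 were far above background on every array. Sfrp1 measured 16.67 and 16.52 in empty vector, 17.84 and 17.14 in scramble, and 16.98, 17.06, 17.14 and 17.62 in shIRF7. All shIRF7 arrays lay above both empty vector arrays, as did both scramble arrays. The difference of shIRF7 in Sfrp1 was 0.60 from empty vector (SE 0.26, unadjusted p = 0.0509, adjusted p = 0.854) and -0.29 from scramble (SE 0.26, adjusted p = 0.941). Scramble stood 0.89 above empty vector (SE 0.30, unadjusted p = 0.019, adjusted p = 0.9999), the smallest p of the 45 genes in that comparison. Sfrp2 measured 15.52 and 15.89 in empty vector, 16.26 and 16.59 in scramble, and 15.27, 16.42, 16.31 and 15.71 in shIRF7. Its scramble arrays were also above both empty vector arrays, and shIRF7 spanned both controls (log2 difference -0.14, SE 0.28, adjusted p = 0.952). With 2 arrays each such separation was common. Scramble lay above empty vector without overlap in 9 of the 45 Wnt genes and 2051 of all 19505 genes. It lay below in 4 Wnt genes and 2393 of all genes.

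Sfrp4, a member of the same family that fat tissue is known to secrete, was higher in 3 of the 4 shIRF7 arrays than on every control array. Sfrp4 values were 5.12 and 5.02 in empty vector, 4.36 and 4.44 in scramble, and 3.85, 6.48, 6.41 and 6.15 in shIRF7 replicates 1 to 4. Replicate 1 of shIRF7 was below every control, and replicates 2 to 4 were above every control. Over all 4 arrays shIRF7 averaged 5.72 ± 1.26 against 4.74 ± 0.39 in the controls (SD, n = 4 each; log2 difference 0.98, SE 0.57, adjusted p = 0.746). Without shIRF7 replicate 1 Sfrp4 passed the threshold, with a difference of 1.61 (SE 0.15, 3.05-fold, adjusted p = 0.0343), in a fit that called 0.144% of all genes. Against scramble the difference without that array was 1.94 (SE 0.18, adjusted p = 0.0456), where 0.041% of all genes were called. Against empty vector it was 1.28 (SE 0.18, limma adjusted p = 0.186), and Sfrp4 was not called. In scramble replicate 2 Sfrp4 lay below the median of that array's negative controls (4.56), so the difference from scramble rests partly on a value at background. The array left out held the value contrary to the other 3, and Sfrp4 was described after its values were seen. Both calls depend on that removal and are a description. Replicate 1 of shIRF7 also had the lowest Irf7 value (4.42) and the highest mean of the pericyte and smooth muscle markers (9.69), as given above. On 1 array these cannot be told apart, and a part of either in the Sfrp4 value was not tested. Sfrp4 did not exceed the 95th percentile of the negative controls on any array.

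The other inhibitors stayed near or below the negative controls. Frzb (3.03 to 3.91), Sfrp5 (2.83 to 3.19) and Wif1 (3.15 to 4.03) lay below the median of the negative controls on all arrays, as did Dkk1 (2.73 to 3.14) and Dkk4 (2.41 to 2.78). Dkk2 measured 5.12 to 5.48 in the controls and 5.37, 6.43, 5.24 and 5.61 in shIRF7 (log2 difference 0.38, SE 0.26, adjusted p = 0.795). Dkk3 measured 4.13 to 5.13 in the controls and 4.39 to 5.90 in shIRF7 (log2 difference 0.18, SE 0.40, adjusted p = 0.958).

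Axin2, whose transcription rises with canonical Wnt signals, was low on all arrays. It measured 5.74 and 3.73 in empty vector, 5.84 and 4.80 in scramble, and 4.54, 3.31, 3.28 and 4.37 in shIRF7, values described in full after they were seen. All shIRF7 arrays were under both scramble arrays, and empty vector replicate 2 lay within the shIRF7 range. The log2 difference of -1.16 from both controls (SE 0.52, 95% interval -2.36 to 0.042, adjusted p = 0.628) did not pass the test. It was -1.45 against scramble (SE 0.63, adjusted p = 0.812) and -0.86 against empty vector (SE 0.63, adjusted p = 0.932). Axin2 was below the median of the negative controls in empty vector replicate 2 and shIRF7 replicates 2 and 3, so these differences rest partly on values at background.

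Beyond the family, 4 lists of other Wnt genes held 129 measured entries, and limma called 0 of them in shIRF7 against both controls. Of 26 target genes of canonical Wnt signalling 0 were called, 5 had an unadjusted p under 0.05, all lower in shIRF7 (8.12% of all genes in either direction), and 2 lay below all controls without overlap (2.8% of all genes). The list median was -0.30, beside 0.0017 over all genes. Ccn5, a matricellular protein, had 13.61 ± 0.60 in shIRF7 against 14.81 ± 0.56 in the controls (SD, n = 4 each; log2 difference -1.20, adjusted p = 0.317). Its difference was -1.66 against scramble and -0.74 against empty vector, and shIRF7 replicate 1 lay within the empty vector range (14.23 to 14.47). Ahr, the aryl hydrocarbon receptor, differed by -2.95 (adjusted p = 0.377), Jun by -0.59 (adjusted p = 0.379) and the hyaluronan receptor Cd44 by -1.34 (adjusted p = 0.525). Cd44 overlapped the controls, at 13.75 in shIRF7 replicate 1 and 13.08 in empty vector replicate 1. Ahr measured 9.61 and 7.44 in empty vector, 10.86 and 8.86 in scramble, and 7.91, 5.39, 4.91 and 6.76 in shIRF7. Its 2 control groups were again higher in replicate 1. The value in shIRF7 replicate 1 lay within the empty vector range but below both scramble arrays. Ahr exceeded background on 3 arrays, empty vector replicate 1 and both scramble arrays, and on no shIRF7 array. These genes respond to many other signals.

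Of 37 genes that pass the Wnt signal inside the cell 0 were called, with 4 lower and 2 higher at an unadjusted p under 0.05 (8.12% of all genes) and a list median of -0.03. Csnk1g1, a casein kinase that phosphorylates Lrp6, measured 10.99 to 11.34 in the controls and 10.54 to 10.84 in shIRF7 (log2 difference -0.50, SE 0.14, adjusted p = 0.363). Csnk1e, which phosphorylates dishevelled proteins, differed by -0.69 (adjusted p = 0.426), and Bcl9l, a beta-catenin cofactor, by -0.36 (adjusted p = 0.560). All 3 were lower on every shIRF7 array than on every control array, as were 2.8% of all genes. Tcf7l1, a mainly repressive Tcf factor, differed by 0.39 (adjusted p = 0.593). Its difference was 0.76 against scramble (adjusted p = 0.539) and 0.025 against empty vector (adjusted p = 0.996). The 2 controls themselves differed, scramble against empty vector by -0.73 (limma unadjusted p = 0.0127, adjusted p = 0.9999).

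Of 32 other genes of Wnt secretion, reception and antagonism 0 were called, with 3 higher and 0 lower at an unadjusted p under 0.05 (8.12% of all genes) and a median of 0.037. Reck, a membrane protein that presents Wnt7 ligands, measured 8.66 to 9.93 in the controls and 10.03 to 10.44 in shIRF7 (log2 difference 0.96, SE 0.31, adjusted p = 0.489), and 2.58% of all genes were likewise higher without overlap. Sulf2, a heparan sulfate sulfatase, differed by 1.27 (adjusted p = 0.597). Vps26a, a retromer subunit, differed by 0.47 (adjusted p = 0.597) and the glypican Gpc4 by -0.81 (adjusted p = 0.701). Of 34 genes of the planar polarity and calcium branches 0 were called, with 2 higher and 0 lower at an unadjusted p under 0.05 (8.12% of all genes) and a median of 0.095. Fuz, a planar polarity effector, differed by 1.09 (adjusted p = 0.326) but stayed at 2.84 to 4.71, near the negative controls. Ppp3cb, a calcineurin subunit, differed by 0.39 (adjusted p = 0.587), Daam2 by 0.45 (adjusted p = 0.639) and Mapk9 by 0.40 (adjusted p = 0.639).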

How the data were processed

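Biotin-labelled total RNA of 8 samples was measured on Affymetrix mouse arrays. The authors deposited 1 log2 value per probe set and array, for which the submitters' processing notes name RMA and Affymetrix Expression Console (version 1.4.1.46); RMA corrects background, normalizes between arrays and compresses differences near background. The deposited log2 values run from 1.66 to 18.95, and the labels do not say whether a step beyond RMA set that scale. The platform annotation gives 1 gene symbol to 19572 of the 28846 probe sets and several to 0; for 55 genes with several probe sets the one with the highest mean was kept, giving 19505 genes. No array column was left unused (0 columns). Groups came from the sample titles. Group means were estimated by limma (3.58.1, R 4.3.3) over all 8 arrays (5 residual degrees of freedom), adjusted over all genes (Benjamini-Hochberg, threshold 0.05). SE and intervals are limma's, and the fit was tested on simulated data with independent noise on each array. There 40.2% of changes of 1 log2 unit and 80.4% of changes of 2 were recovered, and 6.37% of calls were false. The simulation held no deviation shared between arrays, such as that of the control replicates, so these rates may not hold here. The number of arrays limits precision.

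Values were given array by array for genes above the 95th percentile of the negative controls on at least 4 arrays or with an unadjusted p under 0.05 in shIRF7 against both controls or scramble against empty vector; other array values were chosen after they were seen. Of each pathway list the 4 genes of smallest p were named. Lists held 139 pathway and 61 marker entries; 10 and 6 matched no symbol and were not analysed here. Members and lists were chosen with earlier results of these data known. Alternatives were leaving out each array, the replicate block, the controls merged into 1 group, cyclic loess, removal of dim genes, a trended robust eBayes, averaged probe sets, and no summary of probe sets. Proteins were not analysed here.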

Additional observations from a re-analysis of the deposited data

Results flagged for a closer look

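In the 4 shIRF7 arrays the Sfrp4 value of replicate 1, 3.85, stood apart from the other 3 (6.15, 6.41 and 6.48), by 0.875 of the whole range of the group, past Dixon's critical value for 4 values. It was the only one of 14 genes checked in this way (the 10 genes given array by array under the stated rule, with Axin2, Wnt16, Sfrp4 and Irf7) to pass that limit, and chance passes about 5% of groups. Sfrp4 was among the genes checked because its values had been seen, so its gap is a description.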

How the results depend on the processing

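Under the alternatives the Wnt genes called were 0 in each comparison, except without shIRF7 replicate 1, where Sfrp4 made the count 1 against both controls and 1 against scramble (leaving out 1 array gave 0 to 1). The median difference of the 45 genes, 0.017, ranged from -0.025 to 0.080 when 1 array was left out, and the sign of so small a value is not settled. Irf7 passed with both controls as 1 group (-3.79, adjusted p = 0.0299) and without shIRF7 replicate 1 (-3.31, adjusted p = 0.0254); leaving out 1 array gave -4.10 to -3.31 and adjusted p up to 0.316, and the replicate block -4.58 (adjusted p = 0.267). Leaving out 1 array turned the sign of Fzd1 (-0.25 to 0.23), Fzd2 (-0.0037 to 0.57), Fzd5 (-0.43 to 0.23), Fzd7 (-0.59 to 0.030), Lrp6 (-0.22 to 0.85), Sfrp1 (-0.016 to 0.33) and Sfrp2 (-0.30 to 0.084), none of which was called. Wnt4 (-1.31 to -0.86), Axin2 (-1.66 to -0.66), Wnt16 (0.92 to 2.00), Sfrp4 (0.42 to 1.61), Rspo2 (0.062 to 0.98) and Fzd8 (-1.11 to -0.17) kept their sign in every alternative that gave a value; the filter on dim genes removed Wnt4, Axin2 and Sfrp4. With the replicate number as a block (2 residual degrees of freedom, limma) 0 Wnt genes were called, the median was 0.067, and Sfrp1 turned to -0.022. Over all genes replicate 1 minus replicate 2 correlated at 0.757 between the control groups but at -0.290 and -0.215 between each of them and shIRF7 (0.141 and 0.174 over the 45 Wnt genes). The labels do not say what the number marks, and the fit without that block treated all arrays as independent. Its SE and p-values therefore do not account for the deviation that control arrays of the same number shared. The cause of these changes was not tested. Signals below the negative control median limit what can be said of 19 genes.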
